A study of Mus musculus with 20 samples.

Results

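The comparison described here is that of 4 mice killed 72 h after cisplatin with 4 matched control mice, numbered 5 to 8, out of 20 mice in the study. The matched controls are those whose library identifiers run in the same series as the cisplatin libraries. All mice were C57BL/6J by the protocol (C57BL/6 in the strain label), wild type and 8 weeks old, and each mouse gave 1 library of polyadenylated RNA from kidney cortex. The study also held 4 mice with rhabdomyolysis (24 h), 4 with ischemia-reperfusion injury (IRI, 24 h) and a further 4 controls, numbered 1 to 4, in the identifier series of the IRI libraries. Each control is labelled mock, while the study design speaks of mock and vehicle, so it is not known which controls received a vehicle. The cisplatin dose and the sex of the mice are not given in the sources used here. Cisplatin and the other injuries differ both in agent and in time after injury, and these cannot be told apart.

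Cisplatin is a platinum drug that binds DNA and crosslinks it, which stalls replication and transcription and stabilises the transcription factor p53. Its dose in patients is limited by the kidney, because cells of the proximal tubule take it up from blood through the organic cation transporter OCT2 (Slc22a2) and the copper transporter CTR1 (Slc31a1). It is known to injure the proximal tubule, above all its straight part, and to cause renal loss of magnesium. Because whole cortex was sequenced, fewer cells of a type and less RNA per cell cannot be told apart in any value below.

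Values are CPM, read counts that the authors scaled to a common library size, and 1 read was worth 0.0968 to 0.165 CPM in the 8 libraries. The libraries held 3.89 to 4.89 M (mega) reads in the table for cisplatin and 3.58 to 4.99 M for controls 5 to 8. The table lists 6025 genes, and each differed by at least 1.53-fold from the mean of the 8 controls in at least 1 injury. In cisplatin 5197 of them (86.3%) passed 1.5-fold, so the counts below describe a set already selected for change. The listed genes held 45.5% ± 1.32 (SD, n = 4) of the authors' library size in cisplatin and 60.6% ± 4.10 (SD, n = 4) in controls 5 to 8. Defining genes of the proximal tubule, the main cell type of cortex, were abundant in the controls: Slc34a1, the main phosphate transporter of the brush border, lay between 6059 and 7513 CPM, and the endocytic receptor Lrp2 between 1061 and 1388 CPM.

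Of 5672 genes averaging 1 CPM or more over all libraries, 5208 (91.8%) were called at an adjusted p under 0.05 (limma on log2(CPM + 1), Benjamini-Hochberg adjustment). Higher genes numbered 2713 (47.8%) and lower genes 2495 (44%), and 2595 (45.8%) were both called and changed at least 2-fold. All 4 cisplatin values lay above all 4 control values for 2516 genes (44.4%) and below them for 2350 genes (41.4%). The median log2 fold change over all genes tested was 0.30, and quantile normalization, which gives every library the same distribution, moved it to 0.03. List medians below are to be read against that 0.30, and list counts against the 47.8% and 44%. Between controls 1 to 4 and controls 5 to 8 limma and edgeR's quasi-likelihood test each called 0 genes, with 454 genes at an unadjusted p under 0.05 by limma.

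The genes that rose most included Krt20, Havcr1 and Lcn2 of the tubular injury list and Cdkn1a and Eda2r of the p53 list. Krt20, a keratin of damaged epithelium, was read at 0 to 0.138 CPM in the controls and at 553, 1003, 862 and 808 CPM in cisplatin mice 1 to 4. Havcr1, which encodes the tubular injury protein KIM-1, was at 1.66 to 4.54 CPM in the controls and at 1724, 1659, 1546 and 1512 CPM after cisplatin. In both genes no control came near any cisplatin kidney. Lcn2, the iron carrier NGAL, went from 0.414 to 1.32 CPM in controls to 502, 1185, 1099 and 487 CPM. The log2 fold changes of Krt20, Havcr1 and Lcn2 were 9.53 ± 0.22, 8.83 ± 0.23 and 8.76 ± 0.29 (± SE), with limma adjusted p = 3.3e-19, 2.4e-18 and 1.3e-16. Other large rises were Cdkn1a (log2 7.82), the cornified envelope gene Sprr1a (6.52), the glutathione transferase Gsta1 (6.18), the AP-1 subunit Fosl1 (6.00), the receptor Eda2r (5.96) and the orphan receptor Gprc5a (5.65). Fosl1 had 0 reads in every matched control and 54.4 to 78.4 CPM after cisplatin, at least 142-fold higher than the level of 3 reads per control library.

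The largest falls included the globin genes and, from the proximal tubule lists, Inmt and Slc22a28. Apart from the globins, described with the blood markers, Inmt, an indole N-methyltransferase, fell from 892 to 1067 CPM in controls to 12.7, 10.4, 22.2 and 11.2 CPM, a fall of 6.09 ± 0.21 (SE) on the log2 scale (limma adjusted p = 2.7e-16). Clec2h, a C-type lectin, fell by 5.57, the organic anion transporter family member Slc22a28 by 5.29 and the steroid dehydrogenase Hsd3b2 by 5.14 on that scale. In each of these 4 genes the highest cisplatin mouse was below the lowest control. Gsta1, Slc22a28 and Hsd3b2 belong to families of near-identical genes, so the reads may be split between copies.

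**Figure D1:**
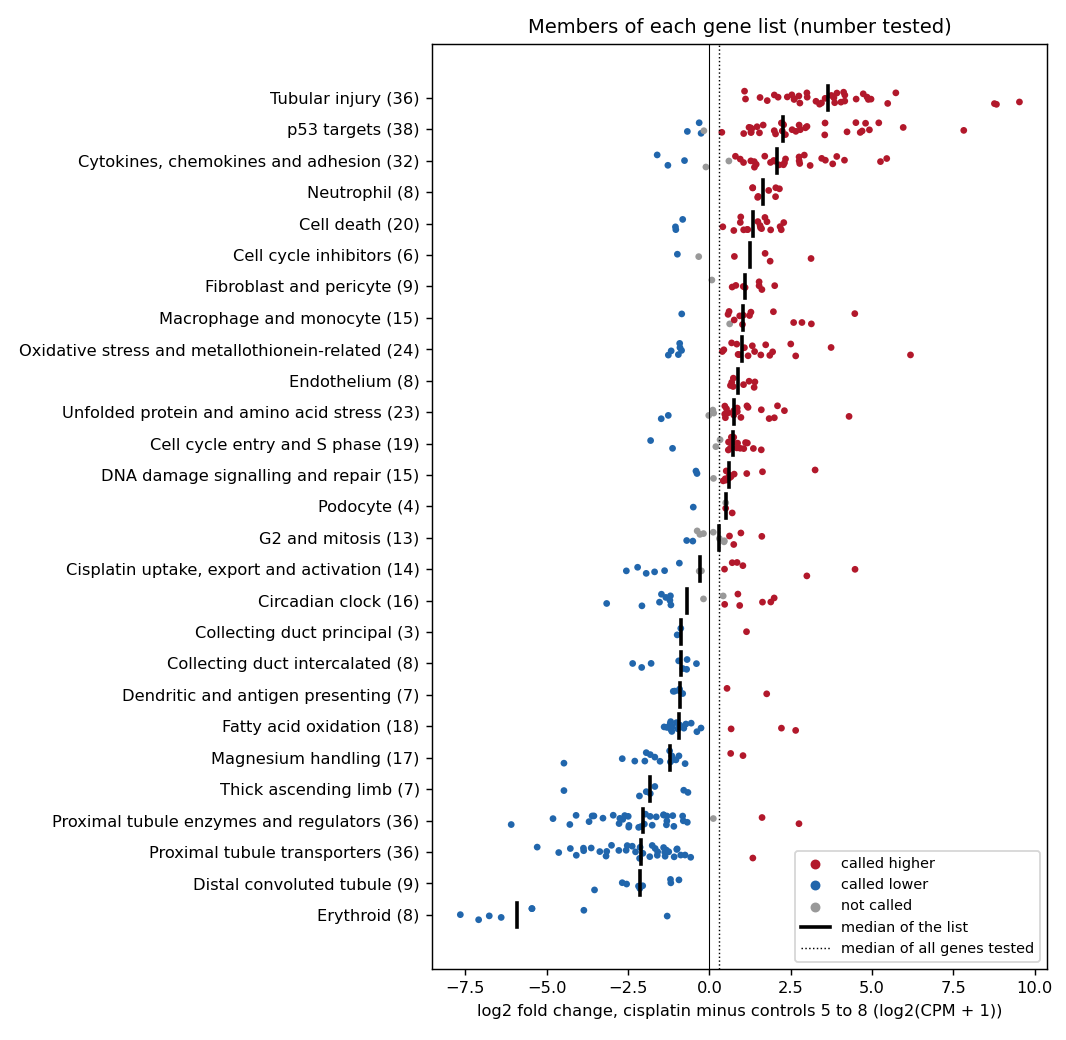
Log2 fold change of each tested member of the gene and marker lists (x axis, log2(CPM + 1), cisplatin minus controls 5 to 8), 1 dot per gene, coloured by call, with the list median as a bar and the number tested in brackets. Tubular injury (median 3.65) and p53 targets (2.26) lie furthest to the right and erythroid genes (-5.93) furthest to the left of the all-gene median of 0.30.

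p53 is a transcription factor that DNA damage stabilises, and its targets stop the cell cycle, repair DNA or kill the cell. Of 46 listed targets 38 were tested and the other 8 were not in the table, and 34 rose while 3 fell, with a median log2 fold change of 2.26. Cdkn1a, the cyclin-dependent kinase inhibitor p21, was at 2.96, 3.85, 5.88 and 3.31 CPM in controls 5 to 8 and at 928, 1171, 1206 and 1135 CPM in cisplatin mice 1 to 4. The ratio of means was 277-fold and the log2 fold change 7.82 ± 0.18 (SE), with limma adjusted p = 3.3e-19. Eda2r, a death receptor of the TNF receptor family, lay at 0.494 to 0.691 CPM in controls and at 96.7, 102, 106 and 94.7 CPM after cisplatin. Zfp365, a zinc finger gene induced by p53, lay at 0 to 0.401 CPM against 40.5, 40.7, 42.7 and 44.9 CPM, and Psrc1, a microtubule regulator, at 0.165 to 0.642 CPM against 34.4, 45.8, 44.6 and 41.2 CPM. These 4 genes separated the groups with no overlap, and their 4 cisplatin values lay close together.

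Other targets of the list were read in the controls at 3.81 CPM on average (Epha2) up to 417 CPM (Ccng1). Mdm2, the ubiquitin ligase that degrades p53, went from 52.1 ± 2.25 CPM to 268 ± 21.9 CPM (SD, n = 4 each). Ccng1, cyclin G1, went from 417 ± 23.5 to 1942 ± 193 CPM, and Ephx1, microsomal epoxide hydrolase, from 47.2 ± 5.47 to 565 ± 53.8 CPM. Bax, the pore-forming death protein, rose 2.82-fold from 33.4 ± 1.73 CPM. The exonuclease gene Aen rose 5.96-fold, the antiproliferative gene Btg2 27.8-fold, the p53 target Phlda3 33.6-fold, the secreted stress factor Gdf15 27.0-fold and the ephrin receptor Epha2 31.5-fold, each by the ratio of means.

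The exceptions were few and small. Cgref1, a secreted growth regulator, fell from 204 ± 29.5 to 127 ± 17.6 CPM (SD, n = 4 each; log2 -0.68 ± 0.16 SE, limma adjusted p = 0.0006). Sesn1, a sestrin, fell by 0.31 and Xpc, a damage sensor of nucleotide excision repair, by 0.25 on the log2 scale (limma adjusted p = 0.029 and 0.033), and for both the groups overlapped. Both calls were lost at the 75th percentile scaling (limma adjusted p = 0.119 and 0.151), which left Cgref1 as the only target called lower. The Sesn1 call was lost without control 6 or cisplatin 2 or 3 (limma adjusted p = 0.112, 0.0995 and 0.0511), and the Xpc call without control 7 or cisplatin 1, 2 or 3 (0.139, 0.0546, 0.0625 and 0.0799). Dcxr, a sugar reductase, was not called (154 ± 16.4 against 139 ± 34.8 CPM, SD, n = 4 each).

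**Figure D2:**
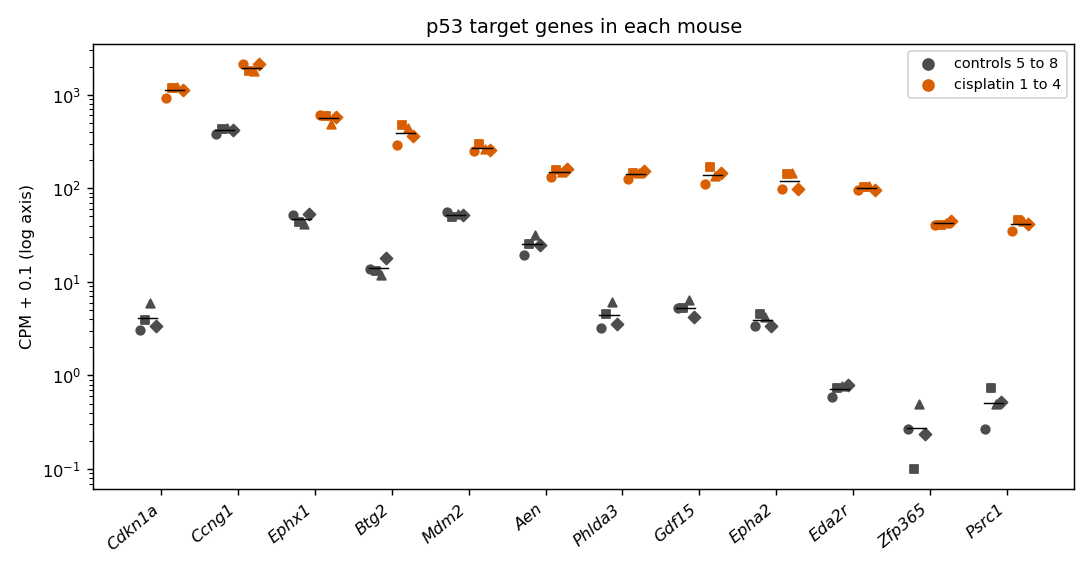
CPM plus 0.1 on a log axis for 12 p53 target genes, 1 point per mouse with a marker shape per mouse, and the group mean as a line. Controls 5 to 8 are grey and cisplatin mice 1 to 4 orange. Every cisplatin point lies above every control point of its gene, and Cdkn1a spans 928 to 1206 CPM after cisplatin against 2.96 to 5.88 CPM.

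Promoters of these targets are shown because most of their genes rose together. p53 binds paired copies of a short motif, the p53 decamer motif. That motif (both strands, 10 bases) was looked for in RefSeq promoters on GRCm38.p6, from 250 bases before to 50 after each start, and 30 of the 38 targets matched a promoter entry. At least 1 motif was present in 11 of 44 promoters of the list (25%), in 7.42% of 5376 promoters of the genes tested and in 8.36% of all 32851 promoters. The share was 7.27% for genes called higher and 7.19% for genes called lower in cisplatin. A pair with at most 13 bases between the copies was present in 24 promoters (0.0731%), and within the list in Cdkn1a only. The motif begins 73 bases before the Cdkn1a start, and the unpaired motifs of Aen, Ccng1 and Mdm2, the called targets with the largest rise among those with a motif upstream of the start, begin 121, 185 and 186 bases before theirs. Sesn1, which was called lower, also holds an unpaired motif, 173 bases before its start. A match is a description of these letters and not a bound site. The motif is in capitals in each stretch, given 5′ to 3′ on the gene's strand.
Cdkn1a, chr17:29090881-29090962, plus strand: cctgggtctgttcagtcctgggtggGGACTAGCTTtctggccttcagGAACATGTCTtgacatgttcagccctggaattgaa
Aen, chr7:78895912-78895971, plus strand: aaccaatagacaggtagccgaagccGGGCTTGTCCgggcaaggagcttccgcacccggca
Ccng1, chr11:40755437-40755496, minus strand: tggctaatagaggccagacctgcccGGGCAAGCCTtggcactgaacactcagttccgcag
Mdm2, chr10:117710910-117710969, minus strand: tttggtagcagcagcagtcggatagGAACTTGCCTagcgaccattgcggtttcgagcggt

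Genes of DNA repair itself were mostly not among the genes listed in the table. Of 74 genes of damage signalling and repair, 58 were absent from the table and 15 were tested, of which 12 rose and 2 fell (median log2 0.60), beside 47.8% higher and 44% lower over all genes. Ercc1, which with its partner makes an incision beside bulky lesions, was at 7.04 to 8.95 CPM in controls and at 60.0, 99.4, 92.2 and 77.0 CPM after cisplatin (log2 3.25 ± 0.16 SE, limma adjusted p = 3.7e-14). Mad2l2, a subunit of the polymerase that copies across lesions, rose 3.32-fold to 30.9 ± 2.91 CPM, and Rad18, the ligase that recruits such polymerases, 2.96-fold to 5.43 ± 1.73 CPM (SD, n = 4 each). Xrcc5, the end-joining subunit Ku80, fell from 75.1 ± 5.13 to 56.2 ± 3.80 CPM. Xpa, another excision repair gene, fell by 0.38 on the log2 scale (limma adjusted p = 0.042), a call lost at the 75th percentile scaling (adjusted p = 0.101) and without control 5, 7 or 8 or any 1 cisplatin mouse (between 0.05 and 0.117). The count called higher was also 12 at the 75th percentile scaling and by edgeR's quasi-likelihood test, whose median was 0.93, and 11 against controls 1 to 4. It was 3 under quantile normalization, with a median of 0.21, and 7 with a minimum mean of 5 CPM.

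Of 19 tested genes of cell cycle entry and S phase 15 rose and 2 fell, with a median log2 fold change of 0.71, beside 47.8% higher and 44% lower over all genes. Under quantile normalization 10 rose and 2 fell, with a median of 0.48. Uhrf1, which copies DNA methylation at the fork, rose from 2.19 ± 0.693 to 8.61 ± 1.84 CPM, and Rrm2, the ribonucleotide reductase subunit, from 6.45 ± 1.43 to 17.9 ± 1.88 CPM (SD, n = 4 each). Ccne2, cyclin E2, rose 2.86-fold. Mcm10, a replication initiator, fell from 5.33 ± 1.90 to 1.86 ± 0.645 CPM (SD, n = 4 each). Of 13 tested genes of G2 and mitosis 4 rose, 2 fell and 7 were not called, with a median of 0.31, near that of all genes. Ccnf, cyclin F, rose by 1.61, the spindle factor Tpx2 by 0.97 and the cytokinesis kinesin Kif23 by 0.75 on the log2 scale, whereas the kinetochore motor Cenpe fell by 0.70 and the spindle protein Nusap1 by 0.51. That median was -0.07 under quantile normalization, where 2 members rose and 5 fell, and the Tpx2 call was lost there and with a pseudocount of 0.1 (limma adjusted p = 0.0612 and 0.0604). Against controls 1 to 4 the Cenpe call was lost (adjusted p = 0.583), and 8 members were called higher. Of 6 tested cell cycle inhibitors other than p21, 4 rose, among them the stress genes Gadd45b and Gadd45a and the inhibitor Cdkn2b, by log2 3.13, 1.71 and 1.87. The p130 pocket protein gene Rbl2 fell from 120 ± 5.14 to 60.6 ± 6.49 CPM (SD, n = 4 each).

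Of 14 tested genes that move or activate cisplatin 6 rose, 6 fell and 2 were not called (median log2 -0.28), beside 47.8% higher and 44% lower over all genes. Slc22a2, the uptake transporter, was at 385, 311, 431 and 317 CPM in controls 5 to 8 and at 143, 89.8, 87.5 and 133 CPM in cisplatin mice 1 to 4. The groups did not overlap, and mice 2 and 3 were the lowest. It fell by 1.68 ± 0.17 (SE) on the log2 scale (limma adjusted p = 1.1e-08). The copper transporter Slc31a1 fell from 296 ± 14.2 to 156 ± 18.7 CPM and Slc47a1, which exports cations and cisplatin into urine, from 734 ± 63.1 to 193 ± 38.7 CPM (SD, n = 4 each). The brush border enzymes that process the glutathione conjugate also fell, Ggt1 4.58-fold and Dpep1 5.67-fold.

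The members that rose were exporters, thiol carriers and a channel. Abcc2 rose 1.83-fold and Abcc4 2.06-fold, both conjugate exporters of the apical membrane. Mt2 and Mt1, metallothioneins that bind metals through cysteines, rose 23.4-fold and 8.23-fold. Mt2 was at 466, 856, 821 and 536 CPM in cisplatin mice 1 to 4 against 20.3 to 35.2 CPM in controls, again with mice 2 and 3 furthest from the controls. The glutathione transferase Gstp1 rose 1.39-fold, a call lost against controls 1 to 4 (limma adjusted p = 0.0604), and the volume-regulated channel subunit Lrrc8a 1.64-fold. The copper pump Atp7b (2.48 ± 0.180 against 1.84 ± 0.597 CPM) and the peptidase Anpep (200 ± 27.5 against 171 ± 41.5 CPM, SD, n = 4 each) were not called. Without cisplatin 1 Anpep was called lower (limma adjusted p = 0.0189), and under quantile normalization so was Atp7b (0.00443).

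All 36 genes of the tubular injury list rose, with a median log2 fold change of 3.65, or 3.79 when Vgf and Areg, both at 0 reads in all matched controls, are set at their lower bounds. The list was drawn up with results of these mice known, so its direction is not independent evidence. Sox9, a transcription factor of regenerating tubule, was at 0.481 to 1.202 CPM in controls and at 21.7, 29.2, 29.3 and 18.8 CPM after cisplatin (log2 3.83 ± 0.21 SE, limma adjusted p = 2.8e-13). Vgf, which encodes a secreted neuropeptide precursor, had 0 reads in controls 5 to 8 and 4.09, 15.7, 16.8 and 4.84 CPM in cisplatin mice 1 to 4. All 4 mice were above the controls, at least 23.1-fold by the means, and mice 2 and 3 were again the high ones. Spp1, osteopontin, rose 13.7-fold to 13338 ± 2674 CPM and Clu, clusterin, 6.25-fold to 2144 ± 537 CPM (SD, n = 4 each), while Areg, amphiregulin, reached only 3.02 ± 0.573 CPM.

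The proximal tubule reabsorbs most filtered solute, and its genes fell. Of 36 tested transporters 35 fell and 1 rose, with a median log2 fold change of -2.09, and of 36 tested enzymes and regulators 33 fell and 2 rose, with a median of -2.05. Slc34a1 was at 6403, 6059, 7513 and 6142 CPM in controls 5 to 8 and at 611, 212, 312 and 521 CPM in cisplatin mice 1 to 4. The groups were far apart, mice 2 and 3 were the lowest, and the fall was 4.09 ± 0.23 (SE) on the log2 scale (limma adjusted p = 7.3e-13). Slc34a3, a second phosphate transporter, fell 22.9-fold and Slc7a13, an amino acid transporter of the straight segment, 24.4-fold. Lrp2 fell 3.12-fold, less than these.

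Among enzymes, Miox, which opens the ring of myo-inositol, fell from 2618 ± 397 to 95.2 ± 29.2 CPM, and Gatm, the first enzyme of creatine synthesis, from 1057 ± 130 to 54.7 ± 17.4 CPM (SD, n = 4 each). Cyp2e1, a cytochrome P450, fell 17.0-fold. Hnf4a, the transcription factor that maintains proximal tubule identity, fell 3.44-fold from 1234 ± 159 CPM. The exceptions rose in all 4 mice. Slc6a18, a glycine transporter of the late proximal tubule, was at 307 to 447 CPM in controls and at 1012, 992, 856 and 972 CPM after cisplatin (log2 1.34 ± 0.16 SE, limma adjusted p = 1.6e-07). Cyp24a1, which degrades vitamin D, rose 2.62-fold to 320 ± 37.1 CPM, and Cyp4a14, a fatty acid hydroxylase under the receptor PPARα, 6.92-fold to 192 ± 68.7 CPM (SD, n = 4 each).

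Fatty acid oxidation is the main energy source of the proximal tubule. Of 18 tested genes 15 fell and 3 rose, with a median log2 fold change of -0.94, and 14 of the 32 listed were not in the table. Under quantile normalization 11 fell and 2 rose, with a median of -0.50. Acaa1a, a peroxisomal thiolase, fell 2.64-fold and Hadh, a mitochondrial dehydrogenase, 2.44-fold. Those that rose included Pdk4, which blocks entry of pyruvate into mitochondria, and Fabp1, a fatty acid carrier. Pdk4 was at 13.2 to 52.4 CPM in controls and at 137, 190, 161 and 168 CPM after cisplatin. The groups did not overlap, and the 4 cisplatin values lay close together (log2 2.65 ± 0.39 SE, limma adjusted p = 2.1e-06). Fabp1 was low (0.384 ± 0.374 against 1.21 ± 0.700 CPM, SD, n = 4 each), and its call was lost under quantile normalization, against controls 1 to 4 and without cisplatin 1 (limma adjusted p = 0.341, 0.442 and 0.0554). Compared directly with rhabdomyolysis, 15 of the 18 were higher in cisplatin and 0 lower, against 32.7% higher and 21.4% lower over all genes. Against the IRI effect 0 were above and 1 below, beside 16.8% above and 13.5% below over all genes, with a median difference of -0.24.

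Of 24 tested genes of the oxidative stress response 18 rose and 6 fell, with a median of 1.00, beside 47.8% higher and 44% lower over all genes. Besides Gsta1, the carbonyl reductase Cbr3 rose from 1.07 ± 0.657 to 25.9 ± 5.59 CPM, the sulfiredoxin Srxn1 from 84.2 ± 5.82 to 540 ± 87.3 CPM and the heme oxygenase Hmox1 from 33.6 ± 7.71 to 192 ± 15.6 CPM (SD, n = 4 each). Sod2, the mitochondrial superoxide dismutase, fell from 487 ± 22.3 to 203 ± 24.7 CPM. Hmox1, which degrades heme, reached 1223 CPM on average in rhabdomyolysis and was lower in cisplatin by 2.64 on the log2 scale (limma adjusted p = 2.5e-10). In IRI it was at 464 to 783 CPM, also above every cisplatin mouse. Heme protein from muscle reaches the kidney in rhabdomyolysis, and its part in these values was not tested.

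The distal nephron, where magnesium uptake is set, also lost transcripts. Of 17 tested genes of magnesium handling 15 fell and 2 rose, with a median of -1.22, while Cldn16, Cldn19 and Umod were among 11 not in the table. Compared directly with rhabdomyolysis 5 were higher and 4 lower (median difference -0.01), beside 32.7% and 21.4% over all genes. Against the IRI effect 2 were above and 7 below (median difference -0.40), beside 16.8% and 13.5% over all genes. Egf, the growth factor that stimulates magnesium entry through Trpm6, was at 1002, 1367, 1064 and 1389 CPM in controls 5 to 8 and at 56.0, 52.3, 53.7 and 49.5 CPM after cisplatin. The cisplatin values nearly coincided, and the fall was 4.47 ± 0.27 (SE) on the log2 scale (limma adjusted p = 2.1e-12). Egf was also low in the other injuries, at 20.2 to 53.2 CPM in rhabdomyolysis and 13.6 to 29.8 CPM in IRI. Trpm6, the apical magnesium channel, fell less, from 15.3 to 23.1 CPM in controls to 8.99, 10.6, 13.1 and 6.88 CPM, and its groups did not overlap (log2 -0.94 ± 0.26 SE, limma adjusted p = 0.0021). The sodium chloride cotransporter Slc12a3 fell 6.40-fold, the calcium-sensing receptor Casr 5.21-fold and the chloride channel subunit Bsnd 4.05-fold.

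The members that rose were Slc41a1, a basolateral magnesium carrier (38.6 ± 4.04 to 61.2 ± 2.66 CPM, SD, n = 4 each), and Cldn14, a claudin that restricts paracellular magnesium uptake. Cldn14 had a single read in the matched controls and 0.484 to 2.01 CPM after cisplatin, and its call was lost under quantile normalization (limma adjusted p = 0.0558). All 7 tested markers of the thick ascending limb fell (median -1.82), all 9 of the distal convoluted tubule (-2.14) and all 8 of intercalated cells (-0.88). Slc12a1, the furosemide-sensitive cotransporter of the thick limb, went from 740 ± 95.8 to 192 ± 22.6 CPM. Pvalb, parvalbumin, fell from 22.5 ± 2.50 to 1.06 ± 0.435 CPM and Kl, the FGF23 coreceptor klotho, from 1230 ± 89.8 to 214 ± 45.9 CPM (SD, n = 4 each). Slc4a1, the anion exchanger of intercalated cells and of red cells, fell 5.58-fold. For principal cells only 3 of 12 markers were tested: the water channel Aqp3 fell 2.00-fold, and Elf5, a transcription factor, rose 4.16-fold from 0.656 ± 0.224 CPM (SD, n = 4).

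Most tested genes of cell death, cytokines and stress signalling rose, beside 47.8% higher and 44% lower over all genes. Of 20 tested cell death genes 17 rose and 3 fell (median 1.34), and 19 of the 40 listed were not in the table. Acsl4, which loads membranes with the lipids oxidised in ferroptosis, rose from 50.6 ± 5.17 to 253 ± 48.5 CPM, Mlkl, the effector of necroptosis, from 1.53 ± 0.241 to 8.49 ± 2.23 CPM and the inhibitor of apoptosis Birc3 from 9.92 ± 1.14 to 48.4 ± 5.86 CPM (SD, n = 4 each). Tnfrsf1b, a TNF receptor, rose 5.45-fold. The 3 that fell encode mitochondrial death proteins or their activator: Aifm1 fell 2.07-fold, Bid 2.06-fold and Endog 1.78-fold. Of 32 tested cytokine, chemokine and adhesion genes 27 rose and 3 fell, with a median of 2.07, or 2.12 with Il6 and Ccl20, at 0 reads in the matched controls, at their bounds. A further 10 of the 46 listed were not in the table.

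Lif, a cytokine of the IL-6 family, lay at 0 to 0.321 CPM in controls and at 38.3, 62.8, 61.7 and 43.7 CPM after cisplatin, and Il1rn, the IL-1 receptor antagonist, at 0 to 0.267 CPM against 33.03, 47.4, 44.0 and 41.8 CPM. Both were absent or nearly so in every control and present in every cisplatin kidney (log2 5.45 ± 0.29 and 5.26 ± 0.26 SE, limma adjusted p = 2.2e-13 and 5.6e-14). Socs3, a feedback inhibitor of such cytokines, rose 26.0-fold and Inhbb, an activin subunit, 21.9-fold. Il6 itself reached 0.678 to 3.63 CPM and the chemokine Ccl20 3.03 to 8.94 CPM. Tnfsf10, the death ligand TRAIL, fell 3.10-fold, the chemokine Cxcl12 2.27-fold and the interferon-induced chemokine Cxcl9 2.04-fold. The Cxcl9 call was lost with a pseudocount of 0.1 and against controls 1 to 4 (limma adjusted p = 0.064 and 0.0969).

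Of 23 tested genes of the unfolded protein and amino acid responses 18 rose and 2 fell, with a median of 0.75, beside 47.8% higher and 44% lower over all genes. Atf3, a transcription factor of the stress response, rose from 0.813 ± 0.254 to 34.6 ± 5.54 CPM (SD, n = 4 each). Ppp1r15a, which restarts translation, rose 5.17-fold, the factor Ddit3 4.84-fold and the amino acid transporter Slc7a5 4.85-fold. Shmt2, a mitochondrial enzyme of serine metabolism, and Herpud1, of the degradation of misfolded proteins, fell 2.75-fold and 2.37-fold. Compared directly with rhabdomyolysis, 20 of the 23 were lower in cisplatin and 2 higher, against 21.4% lower and 32.7% higher over all genes. Against the IRI effect 6 were below and 4 above, beside 13.5% below and 16.8% above over all genes, with a median difference of -0.48. The chaperone Hspa5 rose 1.66-fold to 596 ± 27.2 CPM (SD, n = 4) in cisplatin and averaged 4492 CPM in rhabdomyolysis.

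Of 16 tested clock genes 6 rose and 8 fell (median -0.68), shares near the 47.8% higher and 44% lower over all genes, so the count says nothing particular to the clock. The PAR factors Dbp and Hlf fell 9.28-fold and 3.94-fold, while the repressors Nfil3 and Cry1 rose 4.83-fold and 4.25-fold, the activator Arntl 3.68-fold and Per1 1.84-fold. Arntl and Dbp run in opposite phase over the day in kidney, and the hour at which kidneys were taken is not given in the sources used here. Its part in these values was not tested.

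Red cell genes had the lowest median of the lists. All 8 tested erythroid markers fell, with a median of -5.93, and Hbb-b2 carries the same values as Hbb-bt, so 7 separate genes were measured. Hbb-b1, a beta globin, was at 488, 676, 829 and 1274 CPM in controls 5 to 8 and at 4.20, 5.85, 3.91 and 4.75 CPM after cisplatin. Alas2, the erythroid enzyme that starts heme synthesis, was at 9.88, 9.62, 28.3 and 20.2 CPM in controls and at 0.233, 0.101, 0 and 0.194 CPM after cisplatin. Each cisplatin kidney was far below each control in both genes. Summed over the 7 genes, the erythroid markers gave 1144 to 2876 CPM in controls 5 to 8, 1185 to 2902 CPM in controls 1 to 4, 1037 to 1659 CPM in IRI, 385 to 495 CPM in rhabdomyolysis and 8.04 to 21.8 CPM in cisplatin. Hba-a1, Hba-a2, Hbb-bs and Hbb-bt fell by 6.40, 6.77, 7.66 and 5.45 on the log2 scale. The globins are near-identical copies, and single values such as Hbb-bs at 0, 0, 0 and 4.55 CPM in the cisplatin mice may depend on how reads were shared between them, which was not tested. Without cisplatin 4 the Hbb-bs change was -8.27. Whether blood left in the tissue, or the making of red cells, differed between the groups was not tested.

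**Figure D3:**
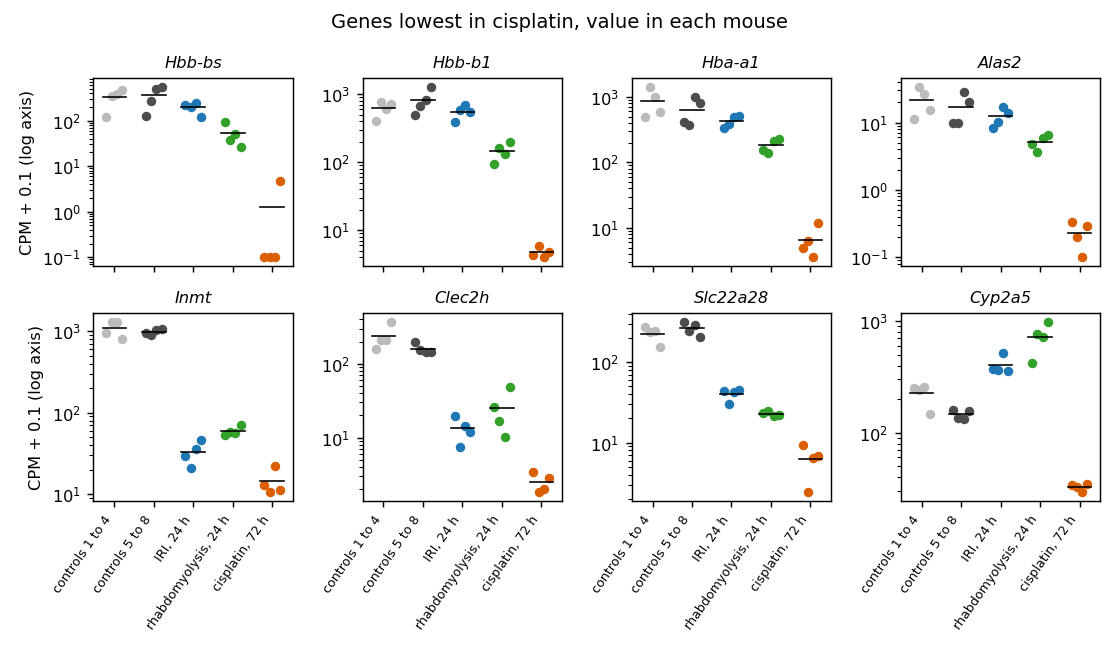
CPM plus 0.1 on a log axis for 8 genes that fell in cisplatin, 1 point per mouse and the group mean as a line, in the 5 groups of 4 mice. Hbb-b1 lies at 3.91 to 5.85 CPM in cisplatin against 488 to 1274 CPM in controls 5 to 8, and Cyp2a5 at 29.2 to 34.9 CPM against a mean of 721 CPM in rhabdomyolysis.

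Markers of the other cells of cortex did not move as one. All 8 tested endothelial genes rose (median 0.89), with Nos3, endothelial nitric oxide synthase, up 2.93-fold and the VEGF receptor Flt1 2.59-fold. Of 15 tested macrophage and monocyte genes 13 rose and 1 fell (median 1.04). Cd68, a lysosomal protein of phagocytes, was at 2.35 to 3.79 CPM in controls and at 92.8, 102, 77.9 and 90.2 CPM after cisplatin. Gpnmb, of lipid-laden macrophages, rose from a total of 2 reads in the controls to 6.80 ± 1.31 CPM, and the integrin Itgam 10.1-fold, while Csf1r, their receptor for colony stimulating factor 1, fell from 54.2 ± 7.61 to 29.5 ± 3.04 CPM (SD, n = 4 each). Of 22 listed markers 6 were not in the table, among them Adgre1. Summed over the 16 markers present, the level was 102 to 143 CPM in controls 5 to 8 and 237 to 371 CPM in cisplatin.

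All 8 tested neutrophil markers rose, with a median of 1.66 on the log2(CPM + 1) scale, or 1.93 with Il1r2 at its bound. By edgeR on whole reads the median was 3.47, and with a pseudocount of 0.1 the medians of single cisplatin mice were 2.36 to 4.06. The levels were low: their sum was 4.83 to 6.09 CPM in controls and 25.4 to 54.6 CPM in cisplatin. S100a9, a granule protein, was at 0.138 to 1.15 CPM in controls and at 3.27, 7.37, 11.6 and 4.45 CPM after cisplatin, and S100a8 at 0.329 to 0.481 CPM against 3.39, 5.45, 7.48 and 3.68 CPM. Ly6g, Mpo and 4 other defining genes were not in the table, and with a minimum mean of 5 CPM 2 were called. Of 7 antigen presentation genes 5 fell and 2 rose (median -0.92), beside 44% lower and 47.8% higher over all genes. The class II gene H2-Eb1 fell 2.20-fold, and the integrin Itgax rose 4.66-fold. Among 9 fibroblast and pericyte genes 8 rose (median 1.10), and the collagen gene Col3a1 rose from 30.8 ± 6.69 to 140 ± 75.1 CPM (SD, n = 4 each). Podocyte genes numbered only 4 in the table (median 0.50). For T and NK cells 2 of 17 markers and for B cells 0 of 10 were tested, too few to describe lymphocytes.

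The 4 cisplatin mice differed in how far they lay from the controls. On the first principal component of the 8 libraries, which carried 92.4% of the variance, mice 1 to 4 scored 45.8, 66.8, 61.8 and 45.4, and the controls -57.5 to -52.6. Mice 2 and 3 were thus further out than mice 1 and 4. Over the 2713 called rises the median log2 difference from the control mean was 0.94, 1.16, 1.11 and 0.89 in mice 1 to 4, and over the 2495 called falls it was -0.90, -1.13, -1.09 and -0.88. Mouse 2 held the highest of the 4 values in 47.6% of the rises and mouse 3 in 33.1%, against 8.81% for mouse 1 and 10.5% for mouse 4. For the falls the lowest value was in mouse 2 in 50.6% and in mouse 3 in 33.03%. These are descriptions of the genes called from the same mice, and no test was made of them. The authors' library sizes of mice 1 to 4 were 8.57, 9.91, 8.95 and 10.3 M. The share of the library size held by the listed genes was 45.5%, 44.4%, 44.8% and 47.3%, lowest in mice 2 and 3. The part of these values in the order was not tested.

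The order held for most gene groups and not for all. Mice 2 and 3 were both further from the controls than mice 1 and 4 in 20 of 27 lists, and in 14 of them under every setting tried. The proximal tubule enzymes had median log2 differences of -1.58, -2.48, -2.46 and -1.63 in mice 1 to 4, the transporters -1.55, -2.35, -2.25 and -1.79, and the neutrophil genes 1.36, 2.13, 2.24 and 1.26. In these lists mice 2 and 3 stood together, apart from mice 1 and 4. The p53 targets stood at 2.18, 2.37, 2.32 and 2.34, a range of 0.19, against ranges of 0.80 for transporters and 0.89 for enzymes. Small ranges were not particular to them: unfolded protein genes ranged over 0.145, G2 and mitosis genes over 0.149 and magnesium handling genes over 0.27. Mice 2 and 3 were both furthest out for the p53 targets in 4 of 9 settings, the main one not among them. Tubular injury genes stood at 3.57, 4.03, 3.91 and 3.38. Fibroblast genes followed another order, 1.48, 1.47, 1.13 and 0.56, in which mouse 1 was as high as mouse 2. Intercalated cell genes were below the controls in all 4 mice and furthest below in mouse 2 (-0.82, -1.35, -0.78 and -0.81). The ranges of lists of different size and level were not tested against each other.

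**Figure D4:**
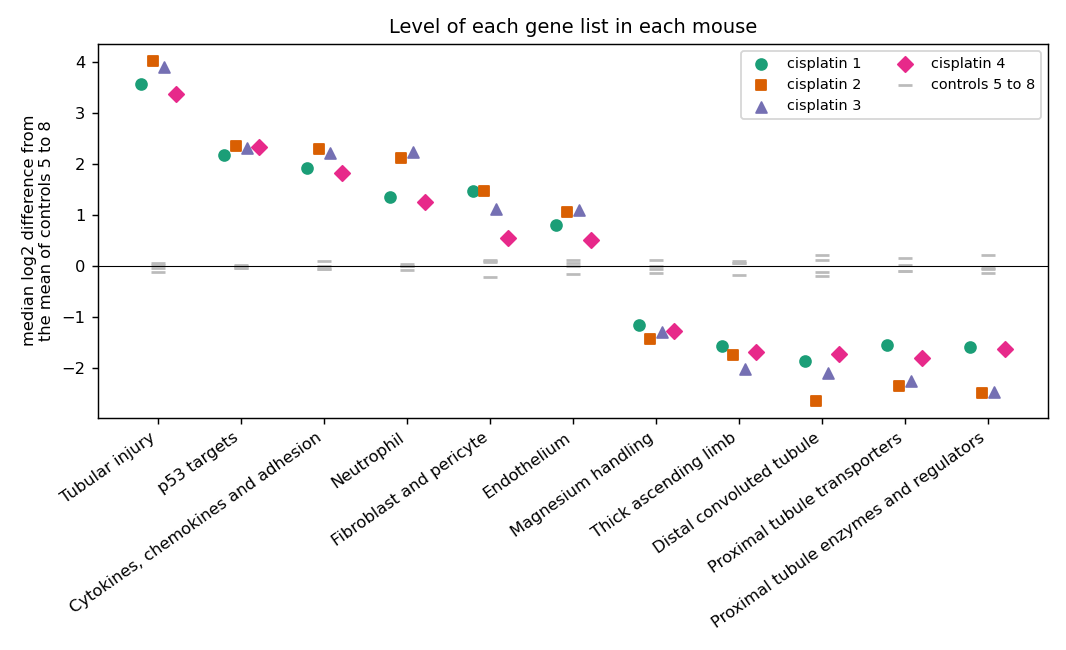
Median log2 difference from the mean of controls 5 to 8 (y axis) over the tested members of 11 lists, 1 symbol per cisplatin mouse, with the controls as grey dashes. Mice 2 and 3 lie apart from mice 1 and 4 for proximal tubule enzymes (-2.48 and -2.46 against -1.58 and -1.63). The p53 targets span 2.18 to 2.37 and the magnesium handling genes -1.42 to -1.15.

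Single genes showed the same pair of mice. Lcn2 at 1185 and 1099 CPM in mice 2 and 3 was above the 502 and 487 CPM of mice 1 and 4, and Vgf at 15.7 and 16.8 CPM was above 4.09 and 4.84 CPM, whereas Havcr1 was even, from 1512 to 1724 CPM. Chil3, a macrophage chitinase-like protein, was at 4.55, 21.9, 18.5 and 4.16 CPM. Mep1b, a brush border protease, was at 57.5, 11.5, 11.6 and 50.7 CPM against 182 to 250 CPM in controls, and the lactate transporter Slc5a12 at 136, 28.7, 46.6 and 107 CPM against 551 to 688 CPM. Both are among the 10 genes with the widest range over the cisplatin mice (among genes with at least 5 CPM there), as are Car3, carbonic anhydrase 3 (12.5, 2.12, 1.23 and 4.36 CPM), and Gm11128 (11.9, 0.807, 2.79 and 13.2 CPM). In all 4 of these genes each cisplatin mouse was below each control. In the stromal genes Tnc, tenascin C (8.52, 27.4, 15.3 and 4.84 CPM), and Pi15, a peptidase inhibitor (9.57, 27.8, 13.7 and 3.87 CPM), mouse 2 was highest and mouse 4 lowest, as in Col3a1 (134, 241, 125 and 59.8 CPM).

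The remaining 4 of the 10 were Slc14a2, Rpl30, Dynlt1f and Gm5512. Slc14a2, the urea transporter of the inner medulla, was at 15.5, 53.2, 18.2 and 6.10 CPM in cisplatin and at 6.92 CPM in control 5 against 0.401 to 1.52 CPM in the other controls. How much medulla was in each cortical sample was not tested. Rpl30, a ribosomal protein gene, was at 9.69, 7.77, 17.7 and 72.2 CPM and was not called (log2 1.19 ± 0.58 SE, limma adjusted p = 0.056). It was called by edgeR's quasi-likelihood test (adjusted p = 0.019), and by limma against all 8 controls, at the 75th percentile scaling and without control 5, cisplatin 1 or cisplatin 2 (adjusted p = 0.04, 0.0429, 0.0151, 0.031 and 0.0196). Without cisplatin 4 its log2 fold change was 0.54. Dynlt1f was at 3.85, 3.13, 9.94 and 32.5 CPM and Gm5512 at 8.05, 9.99, 2.57 and 17.6 CPM, and without cisplatin 4 the log2 fold change of Dynlt1f went from 2.68 to 2.06. Rpl30, Dynlt1f and Gm5512 belong to families of near-identical copies or pseudogenes.

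Over all genes tested the median SD between mice was 0.208 in cisplatin and 0.178 in controls 5 to 8 on the log2 scale. It was 0.206 in rhabdomyolysis, 0.182 in IRI and 0.244 in controls 1 to 4, so by this measure controls 1 to 4 varied most. Under quantile normalization the order changed, with 0.220 in cisplatin, 0.216 in controls 1 to 4, 0.214 in rhabdomyolysis, 0.185 in IRI and 0.162 in controls 5 to 8. The range over the 4 mice exceeded 1 on the log2 scale for 463 genes (8.16%) in cisplatin and 256 (4.51%) in controls 5 to 8. For 432 of the 5208 called genes (8.29%) the range over the cisplatin mice was larger than the difference between the groups.

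Cisplatin was set against the other injuries to see where it differs. Compared directly with rhabdomyolysis, whose libraries share its identifier series, 3068 of 5672 genes (54.1%) were called, 1853 higher and 1215 lower in cisplatin (32.7% and 21.4%). The change from controls 5 to 8 differed from that of IRI against controls 1 to 4 for 1716 genes (30.3%), 953 above and 763 below (16.8% and 13.5%). Genes above both numbered 446 (7.86%) and genes below both 212 (3.74%). Of the 38 tested p53 targets 31 were above both, and 34 above each of them taken alone. The targets not above both included Gdf15 and Epha2, which averaged 117 and 121 CPM in rhabdomyolysis against 139 and 120 CPM in cisplatin. Cdkn1a averaged 1110 CPM in cisplatin, 394 CPM in rhabdomyolysis and 77.0 CPM in IRI.

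The 8 genes furthest above both injuries differed in their level in the other groups. Gc, the vitamin D binding protein, known mainly from liver, was at 29.7 to 34.1 CPM in controls 5 to 8 and at 643, 805, 655 and 762 CPM after cisplatin, against means of 28.5 CPM in rhabdomyolysis and 55.9 CPM in IRI. Its differences were 4.60 ± 0.17 (SE) from rhabdomyolysis and 4.06 from the IRI effect on the log2 scale (limma adjusted p = 3.0e-15 and 8.8e-11). Cpt1c, a neuronal carnitine palmitoyltransferase, was at 28.2 to 32.9 CPM in cisplatin and at means of 0.603 to 1.03 CPM elsewhere, and Alox5, the lipoxygenase that makes leukotrienes, at 14.9 to 22.4 CPM against 0.265 to 0.583 CPM. Ugt1a10, a glucuronosyltransferase that shares exons with its family, was at 68.5 to 97.0 CPM against means of 4.60 to 10.6 CPM. The set was completed by Psrc1 and Zfp365, described with the p53 targets, and by Fam212b and 1700007K13Rik at 36.3 to 41.1 and 33.4 to 38.8 CPM. In all 8 genes the lowest cisplatin mouse was above every mouse of the other 4 groups.

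**Figure D5:**
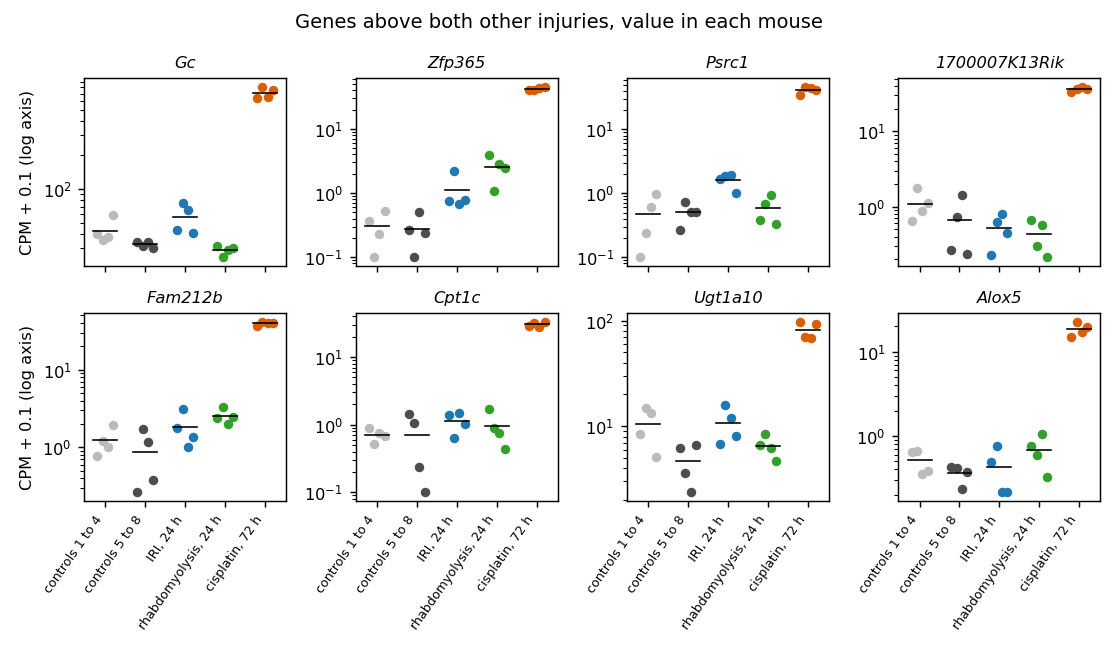
CPM plus 0.1 on a log axis for the 8 genes furthest above both other injuries, 1 point per mouse and the group mean as a line, in 5 groups of 4 mice. In each panel the 4 cisplatin mice stand apart, as for Gc at 643 to 805 CPM against group means of 28.5 to 55.9 CPM.

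Among the 8 genes furthest below both injuries 7 were erythroid, with Hbb-b2 and Hbb-bt both counted, and the other was Cyp2a5, a cytochrome P450. Cyp2a5 was at 134 to 159 CPM in controls 5 to 8 and at 34.2, 32.2, 29.2 and 34.9 CPM after cisplatin, a fall of 2.13 on the log2 scale (limma adjusted p = 2.4e-09). In the other injuries it moved the other way, to means of 721 CPM in rhabdomyolysis and 402 CPM in IRI. Controls 1 to 4, the reference for IRI, lay at 146 to 259 CPM. Each cisplatin mouse was below each mouse of every other group. Cyp2a5 has close copies in its gene cluster, among which reads could be divided.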

How the data were processed

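Kidney cortex RNA of 20 mice was sequenced as stranded 150-bp pairs, per the labels' protocols. The submitters' processing notes name FastQC, Bowtie2 2.1.0, RSEM 1.2.15, edgeR and the builds GRCm38 and mm10, without their order or role. The authors deposited 1 table of CPM values, normalized to a library size they do not define. The values are whole multiples of 1 step in each library (100% within 0.01 of a read), so whole reads could be recovered. They may be rounded RSEM estimates.

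Groups follow the sample titles. Genes averaging 1 CPM or more entered 1 limma 3.58.1 fit (R 4.3.3) of log2(CPM + 1) over the 5 groups with a trend, adjusted by Benjamini-Hochberg over 5672 genes. Called means an adjusted p under 0.05. Fold changes on this scale understate the change of low genes. The statistics were also run on simulated data in which few genes changed and all shared the same dispersion. These data differ in that, so the simulation does not vouch for the calls here. Recovered reads were tested with edgeR 4.0.16. Levels of a list are medians over its tested members. Nothing states that the mice came from separate litters or batches. The table holds 13 date-like symbols, and 5984 of 6025 symbols matched RefSeq names. Promoters come from RefSeq (GRCm38.p6).

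The genes named are the 10 largest rises and falls without overlap, the 4 largest changes of each list and its members of opposite direction, the 10 genes of widest range over the cisplatin mice, and the 8 furthest above and below both injuries, from which the text makes a choice. Mdm2, Ccng1, Aen, Bax, Btg2, Ephx1, Phlda3, Gdf15, Epha2, Lrp2, Hnf4a, Hspa5, Spp1, Clu, Areg, Il6, Ccl20 and Il1r2 were chosen after their values were seen. The comparison and all lists were chosen with earlier results of these data known. Floors of 3 reads cover counting error only. Results of some genes are not reported here.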

Additional observations from a re-analysis of the deposited data

Results flagged for a closer look

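Among 343 sets of 4 values (each named gene or list in cisplatin or in controls 5 to 8), 16 held 1 library far from the other 3 by Dixon's test, which divides its gap to the nearest of them by the whole range. Chance gives about 1 in 20, or 17.2 such sets here, so the number is near that of chance.

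The gap was the whole range (1) where the other 3 libraries were at 0: Hbb-bs in cisplatin 4 (4.55 CPM), Hba-a2 in cisplatin 2 (2.02 CPM), Cldn14 in control 5 (0.165 CPM), Gpnmb in control 5 (0.329 CPM) and Dynlt1f in control 8 (3.31 CPM). Among the cisplatin mice the gap was 0.869 of the range for Rrm2 in mouse 1 (15.1 CPM against 18.6 to 19.1), 0.881 for Cdkn2b in mouse 1 (4.09 against 5.35 to 5.52), 0.907 for Acaa1a in mouse 4 (63.6 against 46.3 to 47.9), 0.909 for Hmox1 in mouse 2 (215 against 183 to 186), 0.847 for Rpl30 in mouse 4 (72.2 against 7.77 to 17.7) and 0.926 for the level of the intercalated cell list in mouse 2 (log2 -1.35 against -0.82 to -0.78). Among the controls it was 0.94 for Cyp2e1 (2280 CPM against 1596 to 1637), 0.864 for Lrp2 (1388 against 1061 to 1106) and 0.864 for Tnfsf10 (74.0 against 90.6 to 93.2), all in control 7, 0.852 for Ppp1r15a in control 6 (14.9 against 18.5 to 19.1) and 0.885 for Rpl30 in control 5 (18.9 against 4.42 to 6.09).

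Tests of the difference itself called 3068 genes between cisplatin and rhabdomyolysis and 1716 between the cisplatin and IRI effects. Genes above both injuries numbered 446 and genes below both 212, or 7.86% and 3.74% of the 5672 tested. Of the tested p53 targets 31 of 38 were above both, and of the erythroid markers 7 of 8 were below both. The erythroid markers count both Hbb-b2 and Hbb-bt, which carry the same values.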

How the results depend on the processing

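The 5208 called genes became 2595 when a change of at least 2-fold was also asked for. Leaving out 1 library gave 5040 to 5206 called genes, edgeR's quasi-likelihood test on whole reads 5186, all 8 controls 5363 and controls 1 to 4 5219. Genes below both other injuries went from 212 to 335 under quantile normalization. Over all pairings of a named gene with an alternative, 27 lost the call, 8 gained one, 2679 kept direction and call, and 2 changed sign for genes that were not called: under quantile normalization Dcxr was at 0.053 and Anpep at 0.044. Of the counts of called list members 7 moved by more than 1.5-fold and 452 did not. Of the list levels of single cisplatin mice 125 moved by at least the SD between those mice and 799 did not. A minimum mean of 5 CPM leaves fewer genes of low level to test. For the other changes the cause was not tested.

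The titles of the cisplatin, rhabdomyolysis and IRI mice and of controls 1 to 4 all carry the numbers 1 to 4, and the block was fitted for the direct comparison of cisplatin with rhabdomyolysis. With the number as a replicate block 2834 genes were called between them, 1713 higher and 1121 lower, against 2929 without the block in the same 8 libraries. The correlations of same-numbered mice were -0.098, -0.207, 0.033 and 0.325. With 4 mice a group these cannot decide whether the numbers pair the mice, and nothing in the labels says that they do. No paired analysis was possible for cisplatin against controls 5 to 8 because they share no number. With 4 mice a group and 1 read worth up to 0.165 CPM, genes near 1 CPM rest on few reads.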
